A study of Mus musculus with 4 samples.

Results

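ATAC-seq peaks at 10 genes of noncanonical WNT signalling and planar cell polarity were described in sorted mouse palate mesenchyme. The genes encode 2 ligands (Wnt5a, Wnt11), 4 receptors (Ror1, Ror2, Ryk, Fzd2) and 4 core polarity proteins (Vangl1, Vangl2, Prickle1, Prickle2). They were chosen by name, with earlier results of these data known. Peaks of the 4 libraries that shared at least 1 bp were merged into regions, and a region belonged to a gene when that was the nearest protein-coding gene within 100 kb. This gave 54 regions at 9 of the 10 genes, out of 39843 regions in all, of which 34802 had a protein-coding gene within 100 kb.

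The mutant libraries (Shox2Cre/-;Nkx2.5F/F;R26RmTmG, n = 2) lacked Shox2, a homeobox gene of the anterior palate, and the control libraries (Shox2Cre/+;Nkx2.5F/F;R26RmTmG, n = 2) kept 1 intact Shox2 allele. All embryos were at E14.5, carried Cre at the Shox2 locus, were homozygous for a floxed Nkx2.5 allele that Cre can delete, and carried the R26RmTmG reporter, which turns green where Cre has acted. Green cells were sorted and pooled, 50000 for each group, so only cells of the Shox2 lineage were measured, and the lists do not measure the loss of either gene. Whether the libraries of a genotype came from separate embryos is not labelled, so the spread between them may be technical. The lists held 29225 and 31832 peaks in the mutant libraries and 30239 and 22966 in the control libraries. Read depth is unknown, and control 2 had the shortest list. As a check on the sort, a peak in all 4 libraries lay at the start of 6 of 8 mesenchyme markers, but also of 2 of 5 epithelial, 1 of 4 endothelial, 1 of 4 blood, 2 of 3 neuronal, 0 of 3 skeletal muscle and 2 of 3 Schwann and glial markers. Of the mesenchyme markers 7 and 8 had a peak at the start in the mutant libraries and 8 and 7 in the control libraries. Pdgfra and Prrx1 lacked one in at least 1 library. Of the epithelial markers Epcam and Cdh1 had a peak in all 4 libraries, and Krt5, Krt14 and Trp63 did not. Open starts are not expression, so these counts do not measure how many other cells the pools held.

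Noncanonical WNT ligands act without beta-catenin. WNT5A and WNT11 bind Frizzled receptors together with the receptor kinases ROR1 and ROR2 or the kinase-dead receptor RYK, and steer cell shape, movement and orientation. VANGL and PRICKLE proteins gather on one side of a cell and give a sheet or a mass of cells its polarity. In the mouse palate, Wnt5a and Ror2 are known for their part in the growth and directed migration of mesenchyme in the shelves.

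Wnt11 and Prickle2, genes with several annotated starts, show what the lists hold and lack, so the 250 bases before each of their starts are printed here. Those of Vangl2 are added, because its promoter had the highest mean rank among the members. Sequences are from RefSeq (GRCm38.p6, the mm10 build), 5′ to 3′ on the strand of the gene, with each CpG dinucleotide in capitals. The promoter table matched 7 of the 10 genes, with 12 starts. Wnt5a, Vangl1 and Fzd2 were not matched. Of the 12 starts, 9 lay under a region called in all 4 libraries, 1 under a region called in 3, and 2 under none.
Wnt11 start 1, chr7:98834862-98835111, + strand, under no listed peak: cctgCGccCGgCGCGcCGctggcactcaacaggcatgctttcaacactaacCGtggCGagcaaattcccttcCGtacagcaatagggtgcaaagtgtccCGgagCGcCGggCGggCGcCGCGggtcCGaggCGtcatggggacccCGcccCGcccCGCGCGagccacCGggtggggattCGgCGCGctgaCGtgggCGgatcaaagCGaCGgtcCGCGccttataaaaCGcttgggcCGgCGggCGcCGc
Wnt11 start 2, chr7:98838595-98838844, + strand, under a peak in all 4 libraries: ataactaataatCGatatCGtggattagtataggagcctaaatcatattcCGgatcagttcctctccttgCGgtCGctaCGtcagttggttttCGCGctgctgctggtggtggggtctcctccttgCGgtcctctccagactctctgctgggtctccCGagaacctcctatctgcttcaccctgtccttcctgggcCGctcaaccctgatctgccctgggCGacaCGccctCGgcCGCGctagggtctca
Prickle2 start 1, chr6:92706185-92706434, - strand, under a peak in all 4 libraries: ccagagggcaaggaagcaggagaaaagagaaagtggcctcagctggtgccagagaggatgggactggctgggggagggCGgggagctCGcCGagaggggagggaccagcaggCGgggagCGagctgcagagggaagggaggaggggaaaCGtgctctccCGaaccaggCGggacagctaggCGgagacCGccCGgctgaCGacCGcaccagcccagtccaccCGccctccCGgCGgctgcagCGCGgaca
Prickle2 start 2, chr6:92567367-92567616, - strand, under no listed peak: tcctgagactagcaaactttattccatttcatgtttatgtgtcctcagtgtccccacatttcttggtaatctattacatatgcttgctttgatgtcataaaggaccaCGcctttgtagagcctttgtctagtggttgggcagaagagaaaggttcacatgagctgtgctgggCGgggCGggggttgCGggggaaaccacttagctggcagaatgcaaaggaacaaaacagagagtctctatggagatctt
Prickle2 start 3, chr6:92534862-92535111, - strand, under a peak in 3 libraries: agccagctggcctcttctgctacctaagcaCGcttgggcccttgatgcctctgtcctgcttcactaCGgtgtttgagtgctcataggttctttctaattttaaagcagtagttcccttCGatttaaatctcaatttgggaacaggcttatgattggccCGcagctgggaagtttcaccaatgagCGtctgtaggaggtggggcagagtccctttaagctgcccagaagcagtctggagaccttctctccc
Prickle2 start 4, chr6:92481393-92481642, - strand, under a peak in all 4 libraries: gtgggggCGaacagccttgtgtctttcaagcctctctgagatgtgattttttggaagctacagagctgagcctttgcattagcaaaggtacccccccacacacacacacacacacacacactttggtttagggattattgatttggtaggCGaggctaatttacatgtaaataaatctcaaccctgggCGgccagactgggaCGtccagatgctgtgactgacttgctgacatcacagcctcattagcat
Vangl2 start, chr1:172027296-172027545, - strand, under a peak in all 4 libraries: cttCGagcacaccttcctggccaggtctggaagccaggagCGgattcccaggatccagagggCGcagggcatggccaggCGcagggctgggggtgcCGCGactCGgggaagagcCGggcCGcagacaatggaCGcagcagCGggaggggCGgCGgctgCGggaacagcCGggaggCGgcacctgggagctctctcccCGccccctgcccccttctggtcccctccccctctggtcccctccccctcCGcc

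The windows differ in base composition, and among these starts a high or low CpG count went both with and without a listed peak. Wnt11 start 1 held 37 CpG and 70.8% G and C and lay under no listed peak, while Wnt11 start 2 held 16 CpG and 56.8% and lay under one in every library. The Prickle2 windows held 18, 4, 5 and 4 CpG from start 1 to start 4, and Vangl2 held 18. Over all 21045 starts of protein-coding genes in the table, the median was 17 CpG for the 10801 starts under a region of all 4 libraries and 2 for the 8825 under no region. Both uncovered starts lay where numbered peaks are missing from the lists. The deposited peak names carry running numbers with gaps, and 3 and 2 numbers in the mutant libraries and 2 and 3 in the control libraries were absent between the listed peaks on either side of Wnt11 start 1. At Prickle2 start 2 the absent numbers were 5 and 4 in the mutant libraries and 2 and 3 in the control libraries. A start without a listed peak is therefore not shown to be closed.

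Short sequence motifs were counted in the windows of all 12 starts on both strands, with none of the motifs contained in another. The 12 windows come from 7 genes, and 4 of them belong to Prickle2, so they are not separate genes. GGGCGG, the core of the SP1 site, occurred in 10 of the 12 member windows and in 43.1% of all windows of this length. AAGTG, a core bound by NKX2-5, occurred in 5 of 12 against 39.6%, CCAAT in 2 of 12 against 35.6%, and TATAAA in 2 of 12 against 11.7%. TAATTA, a homeodomain core pair, and CTTTGAA, a TCF and LEF match, occurred in 0 of 12, against 4.24% and 4.07% of all windows. A match describes letters in a window and is no evidence of binding.

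The regions fell into 13 promoter regions, with a base within 1 kb of a gene start (of either end for Vangl1 and Fzd2, whose strand the table does not give), and 41 distal regions. Of the distal regions 28 lay inside the gene and 13 outside it. The gene table gives no exons or introns, so positions are stated only as inside or outside a gene. The median promoter region was 1350 bp wide and the median distal region 790 bp. Members had a median of 5 regions a gene and of 62.3 kb in length, against 1 region and 17.3 kb over all 21631 protein-coding genes. Ror1, at 349 kb, had the most with 12, followed by Prickle2 with 8 and Ror2 with 7. Ryk had 6, Wnt11 and Prickle1 5 each, Vangl1 and Fzd2 4 each, Vangl2 3 and Wnt5a 0.

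**Figure D1:**
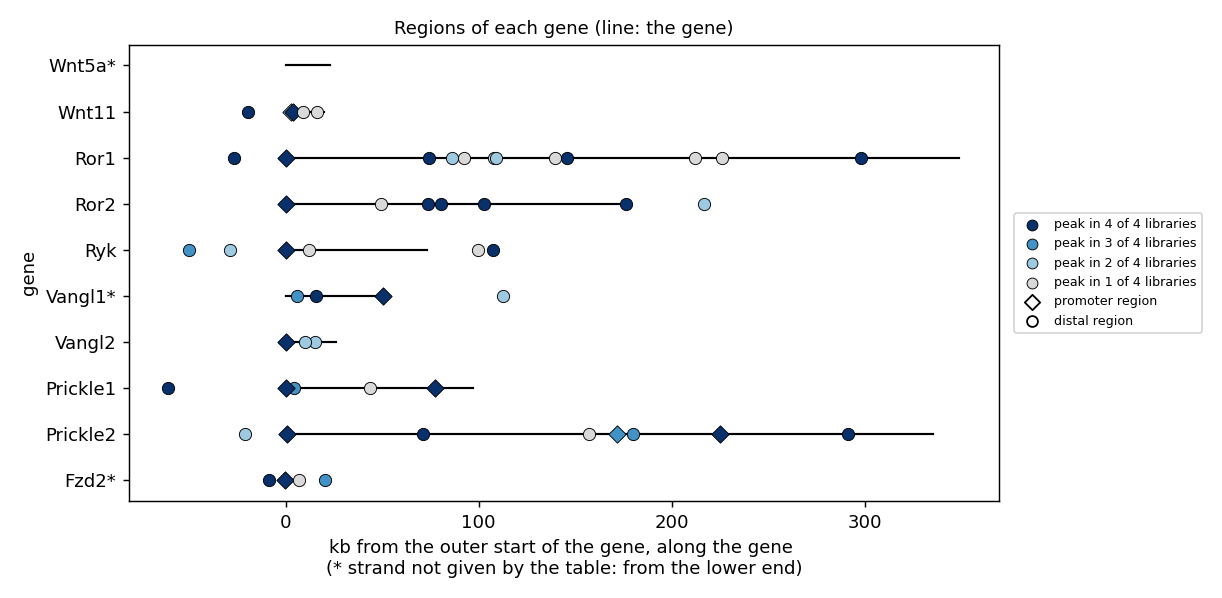
Position of the 54 regions along each gene in kb (x axis), with the gene as a line, promoter regions as diamonds and distal regions as circles, shaded by the number of libraries with a peak. Ror1 carries 12 regions over 349 kb, Wnt5a carries 0, and a Wnt11 promoter region called in 2 libraries lies almost under the one called in 4.

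All 13 member promoter regions had a listed peak in both genotypes, though not in every library. Of the 13 promoter regions 11 were called in all 4 libraries (84.6%), against 84.4% of the 12715 promoter regions of all genes. These covered 9 of the 10 members, while 48.4% of all protein-coding genes had such a region. Of the 41 distal regions 15 were called in all 4 libraries (36.6%), against 30.8% of all distal regions. Over promoter and distal regions together the shares were 48.1% of the members' regions and 50.4% of all assigned regions. The mutant libraries held 38 and 43 of the 54 regions, and the control libraries 44 and 28.

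Genotype-specific calls of listed peaks were few at the members, as they were over all assigned regions. One region was called in both mutant libraries and no control library, which is 1.85% of the members' 54 regions against 4.01% of all assigned regions. In the reverse direction there were 0 regions, against 1.07% of all assigned regions. The mutant-only region lay inside Ror1 at chr4:100181628-100182410, 86.2 kb into the gene. Its percentiles, the rank of the deposited peak score within a library with 100 as the highest, were 19.2 and 15.0, with fold enrichments over background, as the authors deposited them, of 5.55 and 5.63. In the control libraries no peak was listed there, and 4 and 1 peak numbers were absent between the neighbouring listed peaks of control 1 and control 2. The mutant-only percentiles are low within each list. With any 1 library left out, mutant-only regions numbered 1 to 6 and control-only regions 0 to 4. The 6 were reached without mutant 1 and without control 1, and the 4 without control 2. Without mutant 2 there were 4 mutant-only regions. Leaving out a library loosens the rule, because 1 library then stands for a genotype. The matching shares over all assigned regions are not given, so these counts cannot be judged against a background.

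Whole-list percentiles are a description of each library, since the same region can take another percentile in a list of another length. Over all promoter regions held by every library the median was 78.0 and 79.8 in the mutant libraries and 79.0 and 72.4 in the control libraries. For distal regions it was 54.6 and 58.3 in the mutant libraries and 56.3 and 42.4 in the control libraries. Both mutant values lay above both control values in 2020 of these 6801 distal regions, and below them in 397. Among the 15 member distal regions the counts were 4 and 0, the 4 lying at Ror1, Ror2, Fzd2 and Prickle2.

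Listed peaks at the members numbered 39 and 43 in the mutant libraries and 45 and 29 in the control libraries. Per 10000 listed peaks this was 13.3 and 13.5 in the mutant libraries, against 14.9 and 12.6 in the control libraries, so the mutant values lay between those of the controls. The means were 13.4 ± 0.116 in mutants and 13.8 ± 1.59 in controls (SD, n = 2 each), a difference of −0.328 (two-sided exact permutation p = 1). With 2 libraries against 2 the smallest p is 0.333. The difference was 0.799 without control 1, and 2.02 in the upper 50% of each list, so its sign was not stable.

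**Figure D2:**
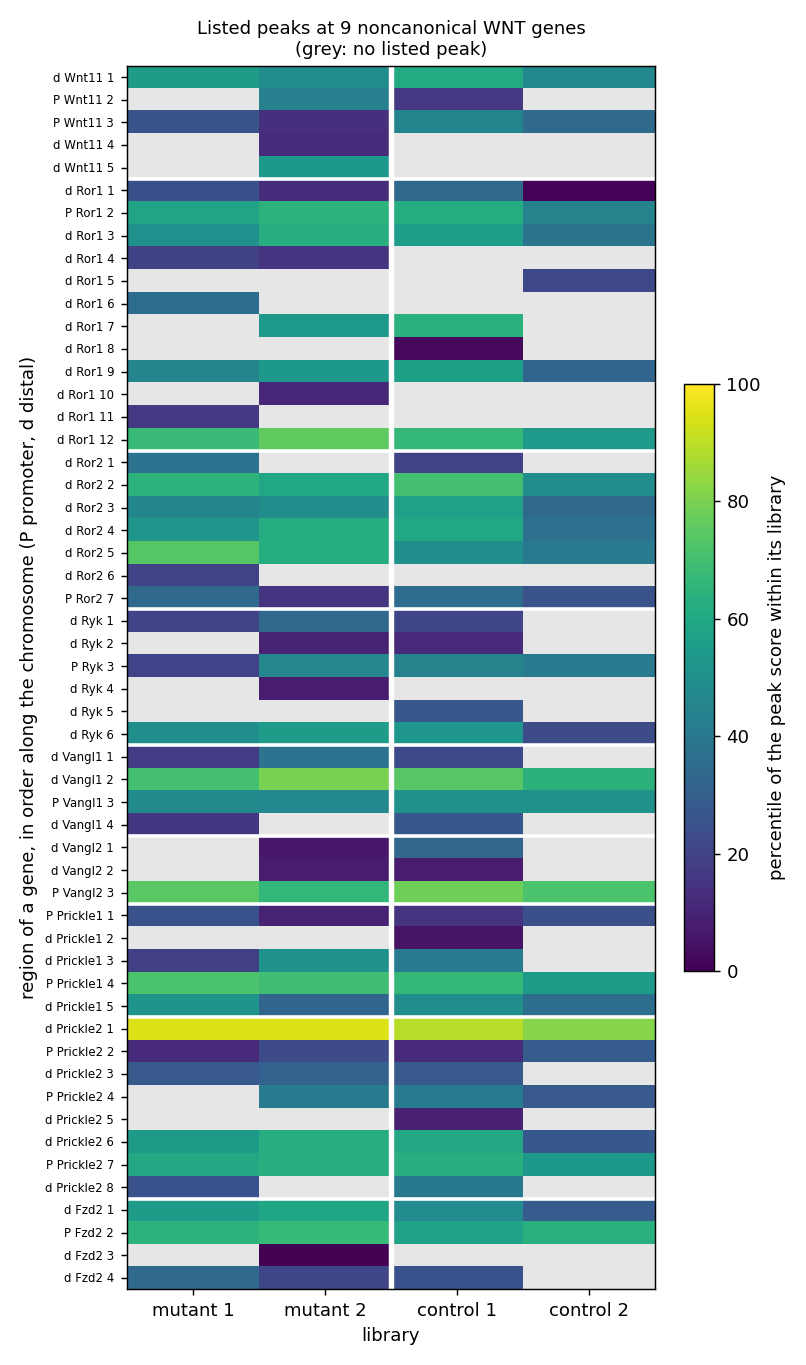
Percentile of the peak score within its library (colour, 0 to 100) for the 54 regions (rows, grouped by gene) in the mutant libraries (left) and the control libraries (right), with grey where no peak is listed. Rows coloured throughout are the 26 regions called in all 4 libraries, control 2 has the most grey cells (26 of 54), and row 1 of Prickle2 has the highest percentiles.

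Missing calls were uneven among libraries. A listed peak was missing in 16 and 11 of the 54 regions in the mutant libraries and in 10 and 26 in the control libraries. In all 63 cases at least 1 numbered peak was absent from the list between the listed peaks on either side, as in 99.8% of such cases over all assigned regions. Of the 6 regions called in exactly 3 libraries, 5 lacked a call only in control 2. Of the 9 regions called in exactly 2 libraries, 5 were shared by mutant 2 and control 1, 3 by mutant 1 and control 1, and 1 by the mutant libraries. A further 13 regions were called in 1 library each, 3 and 5 in the mutant libraries and 4 and 1 in the control libraries. Control 2 had the shortest list, and the shares of these patterns over all assigned regions are not given.

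Among the ligands, Wnt5a, a noncanonical WNT of the palatal mesenchyme, had no region. No listed peak overlapped the gene (chr14:28504543-28527448) in any library. The nearest listed peaks on the lower side were 172 and 225 kb away in the mutant libraries and 47.2 and 36.5 kb away in the control libraries, and those on the upper side 698 and 501 kb and 274 and 1194 kb away. Between these flanking peaks 38 and 36 peak numbers were absent in the mutant libraries and 10 and 38 in the control libraries. The lists therefore do not measure whether Wnt5a was open in either genotype. Over all protein-coding genes 32% had no region. The control peaks nearest to Wnt5a, at chr14:28456338-28457360 in control 1 and chr14:28467478-28468060 in control 2, lay inside Erc2, the neighbouring gene, with percentiles of 16.5 and 5.41 and no listed counterpart in the other libraries.

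Wnt11, a ligand linked to convergent cell movements in vertebrate embryos, was called in every library at start 2 and at 1 distal region. The region over start 2 (chr7:98838694-98839331) had percentiles of 25.9 and 13.6 in the mutant libraries and 45.1 and 34.4 in the control libraries. Both mutant values were below both control values, as in 5.7% of all promoter regions held by every library. Fold enrichment, as deposited, was 3.47 and 3.34 in the mutant libraries and 4.30 and 4.31 in the control libraries. The distal region 19.3 kb before start 1 (chr7:98814909-98816654) had percentiles of 55.2 and 48.3 in the mutant libraries and 61.0 and 46.8 in the control libraries. A second promoter region 0.730 kb before start 2 (chr7:98837850-98838380) was called in mutant 2 and control 1 at percentiles of 43.6 and 16.5, so it did not follow genotype. The 2 remaining regions, inside the gene, were called in mutant 2 alone, at percentiles of 12.5 and 53.4.

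The receptor gene Ror1, which encodes a WNT5A receptor of the ROR kinase family, was called in all libraries at its promoter and at 4 distal regions. Its promoter region (chr4:100095482-100096710) had percentiles of 58.5 and 64.7 in the mutant libraries and 61.8 and 44.8 in the control libraries, with the value of control 2 lowest. The highest distal region lay 298 kb into the gene (chr4:100393376-100394527), with percentiles of 67.5 and 75.5 in the mutant libraries and 66.6 and 54.2 in the control libraries. In each library this distal region ranked above the promoter. The 7 other distal regions of Ror1 were called in 1 or 2 libraries. A pair of them, at chr4:100203619-100204171 and chr4:100204245-100204900, lay 73 bp apart. The lower one was called in mutant 1 and the upper one in mutant 2 and control 1, so the same site may count there as separate regions.

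Ror2, the paralog of Ror1 and a WNT5A receptor needed for limb and palate growth in the mouse, had 4 distal regions in all libraries, each ranked above its promoter. The promoter region (chr13:53284888-53286502) had percentiles of 34.6 and 15.4 in the mutant libraries and 35.9 and 25.7 in the control libraries. These distal regions lay inside the gene. Of these the one at the far end of the gene (chr13:53109458-53110227), 176 kb from the start, had percentiles of 64.7 and 59.4 in the mutant libraries and 70.0 and 49.0 in the control libraries. A region 73.9 kb into the gene (chr13:53211755-53212609) had percentiles of 73.5 and 61.9 in the mutant libraries and 49.8 and 41.8 in the control libraries. Both mutant values were above both control values, an order found in 2020 of the 6801 distal regions of all genes held by every library. Fold enrichment, as deposited, was 8.19 and 7.18 in the mutant libraries and 6.42 and 6.46 in the control libraries.

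Ryk encodes a receptor with an inactive kinase domain. Its promoter region (chr9:102834557-102835759) had percentiles of 20.3 and 46.1 in the mutant libraries and 44.7 and 41.3 in the control libraries, with mutant 1 apart from the other libraries. The single distal region of all libraries lay 34.1 kb beyond the gene (chr9:102942058-102942828), with percentiles of 49.8 and 55.1 in the mutant libraries and 52.5 and 22.7 in the control libraries. There control 2 stood apart at the low end. Fzd2, a Frizzled receptor gene whose loss in mice is linked to cleft palate, was called in all libraries at its lower end (chr11:102603065-102605243) with percentiles of 64.7 and 67.1 in the mutant libraries and 57.7 and 63.3 in the control libraries. A distal region 8.80 kb outside the gene (chr11:102595157-102596099) had percentiles of 55.2 and 58.6 in the mutant libraries and 48.3 and 28.6 in the control libraries. Both mutant values were above both control values, as in 2020 of the 6801 distal regions of all genes held by every library.

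Among the core polarity genes, Vangl2, which encodes a membrane protein of the polarity complex, had the promoter with the highest mean rank of the members and few other regions. In mutant 2 the outer start of Prickle1 and the start region of Fzd2 ranked above it. Its promoter region (chr1:172026265-172027856) had percentiles of 74.3 and 66.2 in the mutant libraries and 78.0 and 71.6 in the control libraries. Fold enrichment, as deposited, was 6.32 and 5.68 in the mutant libraries and 7.34 and 6.93 in the control libraries. The 2 distal regions, inside the gene, were each called in mutant 2 and control 1, at percentiles of 6.76 and 33.1 for one and 7.87 and 8.01 for the other. Vangl1, its paralog, showed the reverse order, with an inner region above the promoter. The region at the upper end of Vangl1 (chr3:102203565-102204914) had percentiles of 48.0 and 46.5 in the mutant libraries and 51.2 and 51.2 in the control libraries, and the inner region (chr3:102169063-102169970) had 70.1 and 79.8 in the mutant libraries and 73.8 and 64.2 in the control libraries.

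Prickle1, which encodes a cytoplasmic partner of VANGL proteins, was called in all libraries at both annotated starts. The region over the outer start (chr15:93594995-93596746) had percentiles of 71.8 and 69.3 in the mutant libraries and 66.8 and 54.4 in the control libraries, and the one over the inner start (chr15:93518215-93519964) had 25.1 and 9.86 in the mutant libraries and 15.0 and 24.3 in the control libraries. The outer start ranked higher in every library. A distal region 60.6 kb outside the gene (chr15:93656449-93657359) had percentiles of 51.7 and 32.5 in the mutant libraries and 49.3 and 36.0 in the control libraries.

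Prickle2, a paralog of Prickle1, held the highest-ranked region of all 54, and it was distal. This region, inside the gene at chr6:92414399-92415325, 66.5 kb beyond start 4, had percentiles of 94.6 and 94.8 in the mutant libraries and 89.2 and 81.9 in the control libraries. Fold enrichment, as deposited, was 13.2 and 13.5 in the mutant libraries and 12.1 and 11.2 in the control libraries. On both measures, which describe the same peaks, the mutant values were above the control values. By percentile 2020 of the 6801 distal regions of all genes held by every library had this order. The share by fold enrichment is not given. The summits of the 4 libraries lay within 59 bp of each other. The region over start 1 (chr6:92704537-92706589) had percentiles of 60.4 and 63.1 in the mutant libraries and 63.1 and 53.2 in the control libraries. This region held 2 peaks in mutant 1 and in both controls and 1 in mutant 2. The summit of the highest-scoring peak lay 1142 bp downstream of the start in mutant 2 and 1155 and 1183 bp downstream in the controls, while in mutant 1 the higher of the 2 peaks had its summit 90.0 bp upstream. The region over start 4 (chr6:92480744-92482050) had percentiles of 12.2 and 23.0 in the mutant libraries and 12.2 and 29.0 in the control libraries. The region over start 3 (chr6:92534290-92535304) was called in all libraries but mutant 1, at percentiles of 40.6 in mutant 2 and 41.6 and 27.9 in the controls. The other region of Prickle2 held by all libraries, at chr6:92634741-92635583, had percentiles of 54.6 and 62.4 in the mutant libraries and 60.2 and 27.6 in the control libraries.

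Member promoters had lower median ranks than promoters of all genes in every library, while member distal regions had medians near those of all distal regions. Ranks were also taken among the 18904 regions held by every library, so that each library ranks the same regions and list length no longer enters. The median shared rank of the 11 member promoter regions was 23.3 and 17.1 in the mutant libraries and 24.8 and 33.5 in the control libraries. Over the 10727 promoter regions of all genes it was 66.0 and 66.1 in the mutant libraries and 66.4 and 66.5 in the control libraries. The 15 member distal regions had medians of 31.3 and 33.1 in the mutant libraries and 32.6 and 25.9 in the control libraries, against 31.3 and 31.4 in the mutants and 31.5 and 30.9 in the controls over the 6801 distal regions of all genes. The order among member promoters by mean shared rank ran from Vangl2, Prickle1 (outer start), Fzd2, Prickle2 (start 1) and Ror1 through Vangl1 and Ryk to Wnt11, Ror2, Prickle2 (start 4) and Prickle1 (inner start). Neighbours in this order overlapped in their values. With the same number of peaks, 22966, taken from each list, 6 in place of 11 promoter regions were still called in every library. The matching change over all promoter regions is not given, so this loss is not shown to be particular to the members.

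**Figure D3:**
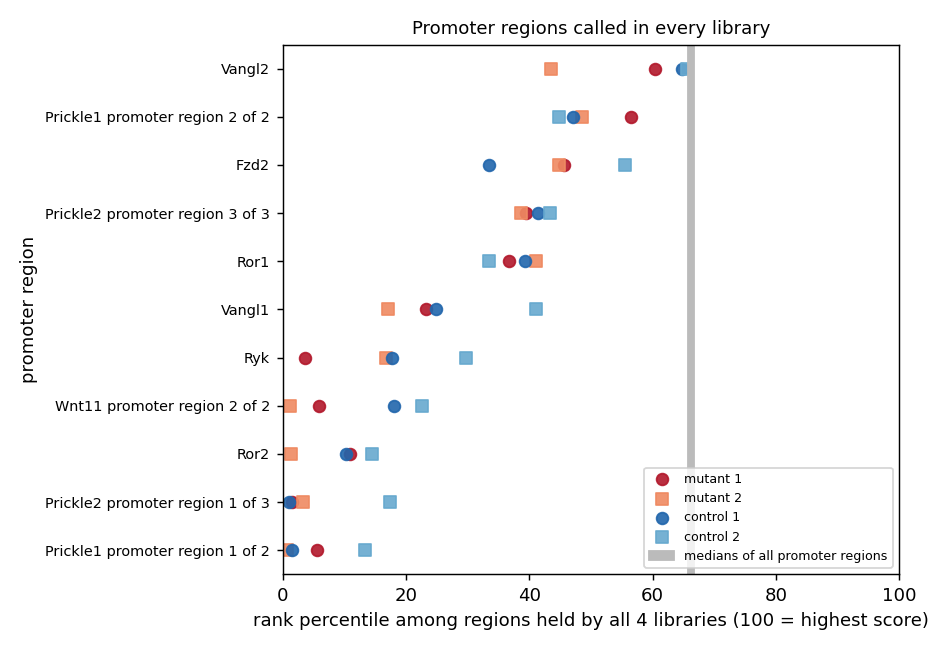
Rank percentile among the regions held by all 4 libraries (x axis, 100 is the highest score) of the 11 member promoter regions called in every library, with mutant libraries in red and orange and control libraries in blue. All values lie below the grey band at 66.0 to 66.5, the medians of all promoter regions, and control 2 is the rightmost point in 9 of 11 rows.

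Of the 11 promoter regions, 5 ranked higher in both control libraries than in both mutant libraries, against 18.6% of all promoter regions, and 1 ranked higher in both mutants, against 15.9%. The 5 were those of Wnt11, Ryk, Vangl2, Vangl1 and Prickle2 start 1. At Wnt11 the shared ranks were 5.89 and 1.13 in the mutant libraries and 18.0 and 22.5 in the control libraries, and at Vangl2 they were 60.4 and 43.5 in the mutant libraries and 64.8 and 65.5 in the control libraries. At Ryk they were 3.57 and 16.8 in the mutant libraries and 17.7 and 29.7 in the control libraries, so the gap between the nearest mutant and control values was small beside the spread within a genotype. At Vangl1 they were 23.3 and 17.1 in the mutant libraries and 24.8 and 41.0 in the control libraries, and at Prickle2 start 1 39.4 and 38.6 in the mutant libraries and 41.5 and 43.3 in the control libraries. The 1 in the other direction was the outer start of Prickle1, at 56.4 and 48.6 in the mutant libraries and 47.0 and 44.8 in the control libraries.

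Control 2 had the highest shared rank in 9 of the 11 member promoter regions, against 29.4% of all promoter regions, and in 0 of the 15 member distal regions, against 26.7% of all distal regions. Control 1 by itself ranked above both mutants in 5 of the 11 promoter regions, against 34.8% of all promoter regions. Leaving out control 2 sets nearly the same condition, so its count of 5 of 11 adds no separate support. The count of promoter regions higher in the controls was 9 of 11 without control 1 and 8 of 12 without mutant 1. In these settings 1 library stands for a genotype, which is a looser condition. The matching shares over all promoter regions are not given, so these counts do not show a stronger pattern. By percentile in the whole lists, 2 of the 11 promoter regions (Prickle1 outer start and Fzd2) lay higher in both mutants, against 27.5% of all promoter regions. Another 2 (Wnt11 and Vangl1) lay higher in both controls, against 5.7%. With 2 libraries against 2, no two-sided exact permutation test over libraries can give a p under 0.333.

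Of the 15 distal regions held by every library, 4 ranked higher in both mutant libraries, against 18.6% of all distal regions, and 2 ranked higher in both control libraries, against 18%. The 4 were the inner region of Ror2, the distal region of Fzd2, the strongest region of Prickle2 and the far region of Ror1. Their shared ranks were 59.1 and 36.8 in the mutant libraries and 23.1 and 30.1 in the control libraries at Ror2. At Fzd2 they were 32.0 and 31.9 in the mutant libraries and 21.5 and 17.0 in the control libraries, and at Prickle2 91.7 and 91.2 in the mutant libraries and 82.7 and 78.0 in the control libraries. At Ror1 they were 49.8 and 58.7 in the mutant libraries and 46.8 and 44.6 in the control libraries. Of the 12 promoter and distal regions whose groups did not overlap, 4 were separated by more than both gaps within a genotype. These were the distal regions of Fzd2 and Prickle2, higher in mutants, and the promoters of Wnt11 and Prickle2 start 1, higher in controls. At Prickle2 start 1 the genotypes lay 2.09 percentile points apart and the controls 1.82. The share of all regions that meet this stricter rule is not given, so the 4 cannot be set against a background. The 2 distal regions higher in controls lay at Wnt11 and Ror2 (chr13:53182964-53183887). Over all 26 regions, 5 ranked higher in both mutants and 7 in both controls, against 17% and 18.4% of all assigned regions held by every library. The counts for all 26 were near these shares, and peak scores without read counts do not measure a change in accessibility.

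**Figure D4:**
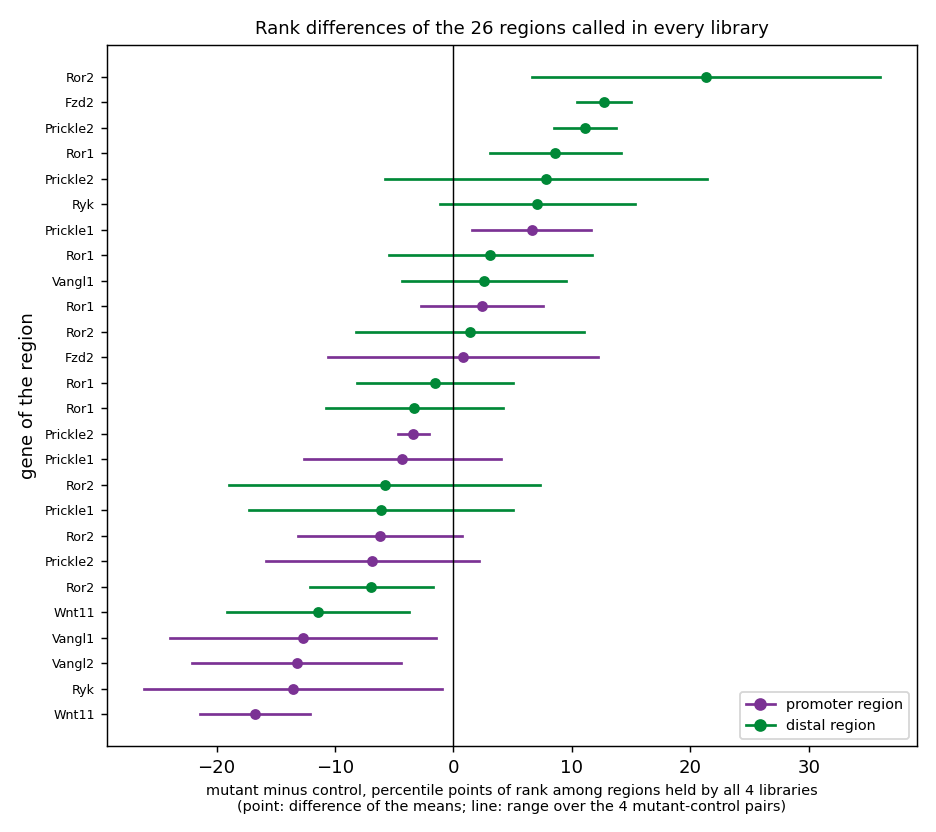
Mutant minus control difference in shared rank, in percentile points (x axis), for the 26 regions called in every library (rows), with the difference of the means as a point and the range over the 4 mutant and control pairs as a line. Lines that do not cross 0 are the 5 regions above in both mutants, led by Ror2 at 21.3, and the 7 above in both controls, the lowest being the Wnt11 promoter at −16.8.

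The other 30 genes of the pathway on a list chosen by name, among them Celsr, Dvl and Daam genes, had 76 regions at 29 of 30 genes, of which 32 were called in all 4 libraries (42.1%), and a promoter region of all 4 libraries at 21 genes. Over all assigned regions 50.4% were called in all 4 libraries. Of their 32 promoter regions 22 were called in every library (68.8%), against 84.4% of all promoter regions. Of their 44 distal regions 10 were (22.7%), against 30.8% of all distal regions. One region was mutant-only, 3.06 kb outside Wnt9a, a WNT ligand gene (chr11:59336314-59336915), with percentiles of 35.7 and 30.0 in the mutant libraries. One was control-only, inside Wnt5b, a ligand gene closely related to Wnt5a (chr6:119499251-119499805), with percentiles of 6.14 and 2.32 in the control libraries. Over all assigned regions 4.01% were mutant-only and 1.07% control-only, against 1 region each among these 76. Of the 32 regions in every library, 2 ranked higher in both mutants (6.25%) and 4 in both controls (12.5%). The shares of all assigned regions held by every library were 17% and 18.4%.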

How the data were processed

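The 4 ATAC-seq peak lists, 1 per library, use mm10 coordinates, per the submitters' processing notes. Names of the aligner and peak caller, and any shift of reads for the transposase, were not given in the sources used here. In all but 5 rows the authors' deposited score equals 10 times the −log10 p, rounded down. The deposited fold enrichment (a ratio to a background that is not stated) and −log10 q-value are likewise the authors' values for single peaks, used only to rank or describe. Of the numbered peaks, 25.8% and 26.7% were listed in the mutant libraries and 27.8% and 23.8% in the controls. The lists hold no read counts and the depth is unknown, so counting error is not given.

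From these lists, regions on chromosomes 1 to 19 and X were merged and assigned from their midpoint to the nearest of 21631 protein-coding genes (RefSeq, GRCm38.p6), with Python 3.11.15, pandas 2.3.3 and numpy 2.4.6. Of these genes 17274 had an annotated start. Peaks per 10000 were compared with a two-sided exact permutation test. Scripts were tested on made-up peaks with known answers. The members and lists were chosen with earlier results of these data known. By rule, the regions named are all promoter regions, all genotype-specific regions and the strongest distal region of each gene, by its lowest percentile; other regions were named after their values were seen. Alternatives were list length, overlap, distance, the start rule, the replicate block and leaving out each library.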

Additional observations from a re-analysis of the deposited data

How the results depend on the processing

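The shared ranks and their alternatives were chosen after the data were seen. With 22966 top-ranked peaks from each list, mutant-only regions of the members numbered 0 and promoter regions in every library 6, against 1 and 11 in the whole lists. With the lists reduced to their upper 50%, there were 2 mutant-only and 1 control-only regions, 7 regions and 4 promoter regions in every library, and the difference in peaks per 10000 was 2.02 in place of −0.328. With 1 library left out this difference ran from −1.45 (without control 2) to 0.799 (without control 1), mutant-only regions from 1 to 6 (6 without mutant 1 or control 1, 4 without mutant 2) and control-only regions from 0 to 4 (4 without control 2). Promoter regions higher in both controls numbered 5 by shared rank, 2 by percentile in the whole list, 4 by fold enrichment and 3 of 6 with equal numbers of peaks. With 1 library left out they numbered 5 to 9 (9 without control 1, 8 without mutant 1, 5 without mutant 2 or control 2). Distal regions higher in both mutants then numbered 5 to 9 (9 without mutant 1 or control 1), where 1 library stands for a genotype. They numbered 4 by shared rank, by percentile in the whole list, by fold enrichment and with equal numbers of peaks. Shares over all regions are not given with a library left out, by fold enrichment, with equal numbers of peaks or in the upper 50%. The causes were not tested. Requiring 100 bp of overlap, a limit of 50 kb, distance to the gene start and the midpoint rule left every count of regions within 1.5 times its value, but distance to the start, which drops Vangl1 and Fzd2, moved the difference in peaks per 10000 to −0.545 (exact permutation p = 0.667), and equal numbers of peaks moved it to −0.871 (exact permutation p = 1). With the replicate number as a block, the difference was −0.328 (exact permutation p = 1). The labels do not say that libraries with the same number belong together.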
